A study of Xenopus laevis with 90 samples.

Results

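Persistent depletion of H3K4me3 (trimethylation of histone H3 at lysine 4) was examined at 6.5 hours post fertilization (hpf) in *Xenopus laevis* embryos, 2 hours after the 256-cell stage. These are the libraries titled Treated-IAA and Control-IAA at this time. Persistently depleted embryos received 11 ng of mRNA for the active H3K4 demethylase Kdm5b, 345 pg for a histone H3.3 in which lysine 4 is replaced (H3.3K4M) and 5 ng for the plant protein TIR1. Control embryos received 4 ng of mRNA for a catalytically inactive Kdm5b, 345 pg for wild type H3.3 and the same 5 ng for TIR1. Both groups were kept without auxin, so that the injected proteins, which carry an auxin-dependent degradation tag, were not removed. Wild type embryos were not injected, and window depletion embryos received the same mRNAs and their controls but were placed in 500 µM auxin (IAA) at the 256-cell stage. There were 3 libraries for each group from each of 2 frogs, so 12 of the 90 libraries of the series carry the comparison, 6 persistently depleted and 6 control.

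Each library is total RNA from a pool of 3 whole sibling embryos, depleted of ribosomal RNA. The 3 pools of a frog share their parents, so a p-value within a frog covers only variation among sibling pools. The Kdm5b mRNA dose differed between depleted and control embryos by design, as the study set the amounts to give equal levels of the injected proteins. An effect of the amount of injected RNA cannot be told apart from an effect of the injected proteins. H3K4me3 itself was not measured in these libraries. The frogs were tested separately over all genes with at least 1 TPM in 3 or more libraries, which left 20891 for frog 1, 20277 for frog 2 and 19581 tested for both. TPM gives the share of a gene in all transcripts of a library, corrected for transcript length and set to a fixed total. The added 1 makes changes of low genes appear smaller. Changes are differences of log2(TPM + 1), persistently depleted minus control, and "lower" or "higher" without further comment means an adjusted p (limma, Benjamini-Hochberg) under 0.05.

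A *Xenopus* egg is loaded with maternal RNA and the early embryo divides rapidly with little transcription of its own. At the mid-blastula transition the zygotic genome is switched on, and the first strongly induced genes include the Nodal ligands and their mesendoderm targets, the genes of the Spemann organizer, which forms the dorsal axis, and the Vent genes, which act in ventral and pluripotent cells downstream of BMP. H3K4me3 is a mark of promoters of active genes. It is written by COMPASS complexes and removed by demethylases of the Kdm5 family.

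The injected RNAs were visible in the libraries. The gene *hbg1.L*, a globin whose untranslated regions are used in the expression plasmid, had 11263, 21748 and 22606 TPM in persistently depleted embryos and 15725, 14517 and 8240 TPM in control embryos of frog 1, where the groups overlapped. In frog 2 it had 13331, 11524 and 8761 TPM in depleted and 4161, 3951 and 6770 TPM in control embryos, and these did not overlap. All depleted pools also lay above all control pools for 31.1% of the genes tested in frog 2. The change of *hbg1.L*, 1.2 ± 0.42 (SE), did not pass the test (adjusted p = 0.14). Wild type embryos had at most 0.829 TPM. The H3.3 gene *h3-5.L*, whose level can include the injected H3.3, had 177, 259 and 308 TPM in depleted and 398, 363 and 229 TPM in control embryos of frog 1, with overlap. In frog 2 it had 948, 708 and 665 TPM in depleted and 258, 257 and 350 TPM in control embryos, a change of 1.42 ± 0.32 (adjusted p = 0.0095). The part of injected RNA amounts in the results below was not tested. The endogenous *kdm5b.S* had 36.4 to 55.5 TPM in the 12 libraries and did not pass in either frog (changes of 0.04 ± 0.12 and 0.12 ± 0.10), nor did the H3.3 genes *h3-3b.L* (0.06 ± 0.10 and 0.02 ± 0.08) and *h3-3b.S* (0.10 ± 0.10 and 0.07 ± 0.07).

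Ribosomal RNA left after depletion made up 9.22% to 29.9% of the TPM in the 6 depleted and control libraries of frog 1, the highest in control pool 3, and 3.87% to 9.65% in those of frog 2. The libraries held 17787 to 18468 genes with at least 1 TPM in frog 1 and 18021 to 18386 in frog 2. Over all tested genes the change had a median of 0.08 in frog 1 and 0.14 in frog 2. Median-ratio rescaling brought these medians to -0.01 and -0.00, so changes are read against them.

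Among genes that passed the test in the main fit, lower ones outnumbered higher ones in both frogs, but the frogs differed greatly in number. At an unadjusted p (limma) under 0.05 the order was opposite, without removal of the median shift of all genes. There, 323 genes had a negative and 548 a positive change in frog 1, and 548 and 4156 in frog 2. In frog 1, 19 genes were lower (0.0909% of genes tested) and 1 was higher (0.00479%). In frog 2, 236 were lower (1.16%) and 66 higher (0.325%). A total of 16 genes were lower in both frogs (0.0817% of the genes tested in both) and 1 was higher in both (0.00511%). These counts depended on the fit. With the libraries of the contrast alone, 2 genes were lower and 4 higher in frog 1, so that higher ones were more numerous there. In frog 2 this fit gave 86 lower and 9 higher genes, and 0 genes were lower in both frogs. With a pseudocount of 0.1 the shared lower genes numbered 6. The count for frog 1 also rested on single pools. The shared lower genes numbered 5 without depleted pool 1, 3 without depleted pool 3, 4 without control pool 1 and 5 without control pool 2 of that frog, and 22 without depleted pool 2. Fitted jointly, the mean change of both frogs passed for 205 lower genes, which included the 16, and 51 higher genes. This mean can pass on frog 2 alone, so the 205 are not genes lower in each frog. *LOC108703412*, listed at 0 in the depleted and control pools of frog 1, passed with a mean of -0.98 (limma, adjusted p = 7.4e-07).

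**Figure D1:**
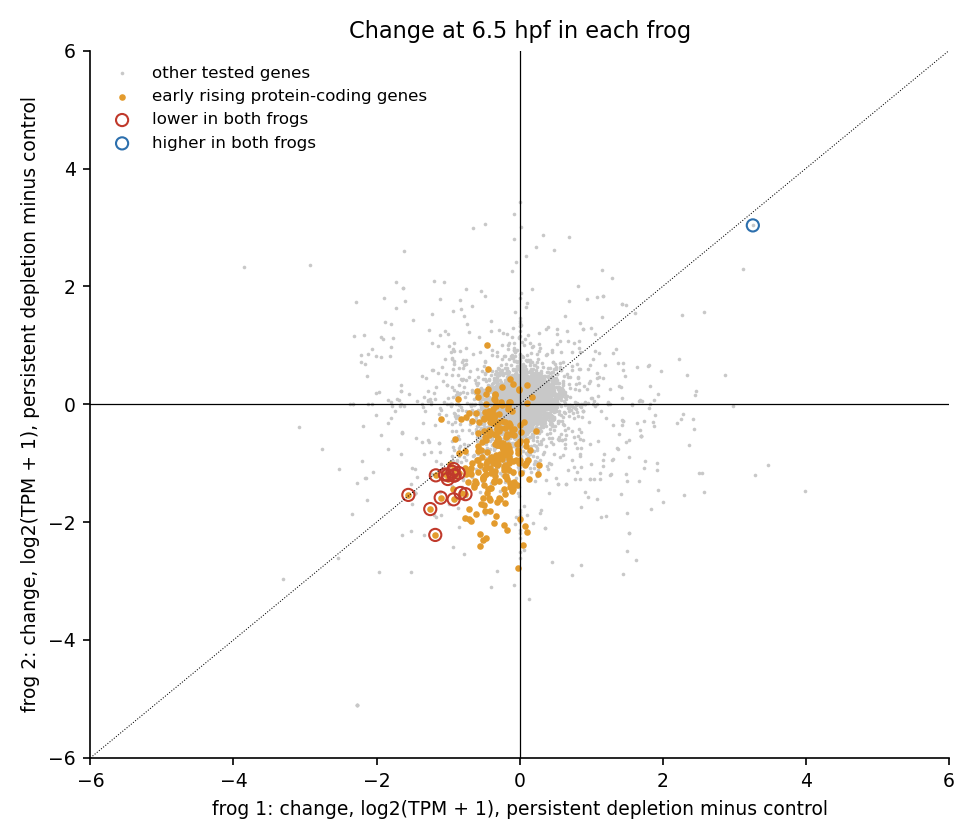
Change in log2(TPM + 1), persistently depleted minus control, at 6.5 hpf for the 19581 genes tested in both frogs, with frog 1 on the horizontal and frog 2 on the vertical axis and a dotted line of equal change. The early rising protein-coding genes (orange) spread downward in frog 2 with smaller changes in frog 1, and the 16 genes lower in both frogs (red circles) lie at the lower left.

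The 16 genes lower in both frogs (0.0817% of the genes tested in both) were set beside a list of Nodal and mesendoderm genes. That list was chosen with earlier results of these data known. In it, 28 gene copies rise early in wild type embryos, as do 15 of the 16 genes, and the list was not tested apart from this. The list held 10 of the 16, *nodal2.L*, *gdf3.S*, *lefty.L*, *mix1.L*, *bix1.1.L*, *bix1.3.L*, *eomes.L*, *eomes.S*, *foxa4.L* and *foxa4.S*. The others were *chrd.1.L*, *ventx2.1.S*, *xenf.L*, *has2.L* and the unnamed protein-coding genes *LOC100158389* and *LOC108702592*. All 16 were called because they fell at 6.5 hpf in both frogs, so the values below describe them. Changes lay between -1.55 and -0.76 in frog 1, and the frog 2 values lay between -2.22 and -1.10. Depleted and control pools did not overlap for any of the 19 lower genes of frog 1 and for 230 of the 236 of frog 2, against 1.56% and 2.95% of all tested genes lying apart in this direction.

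**Figure D2:**
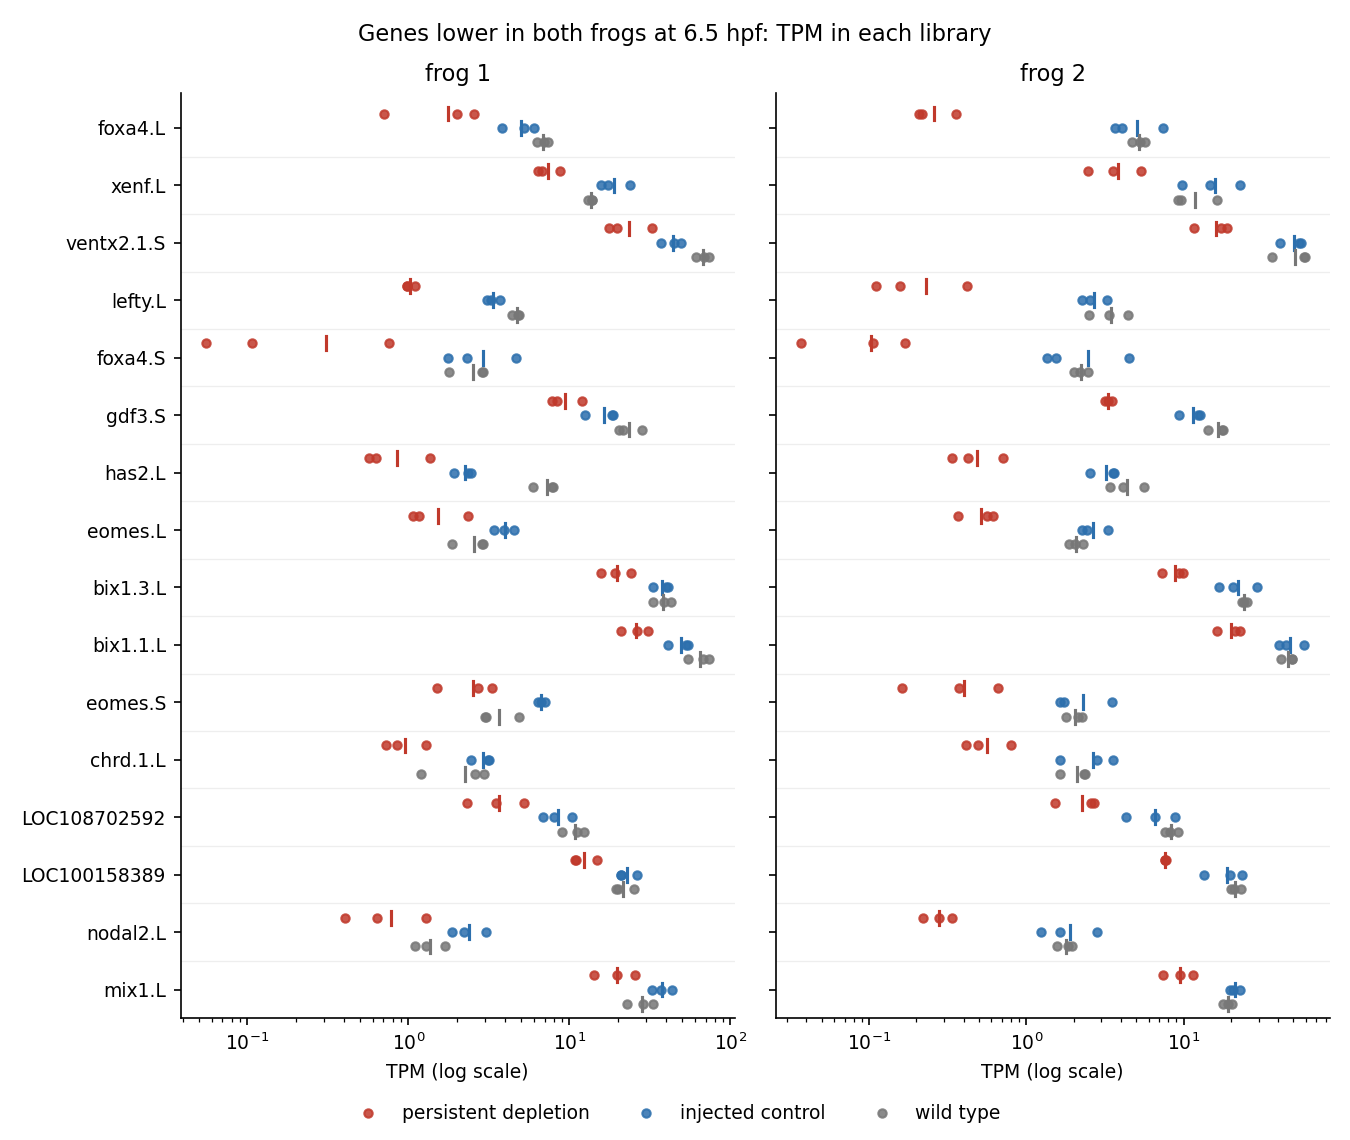
TPM on a log scale in each library at 6.5 hpf for the 16 genes lower in both frogs, with persistently depleted (red), injected control (blue) and wild type (grey) embryos from top to bottom in each row and a vertical tick at the mean of 3 pools. Every depleted pool lies below every control pool of its frog, while control and wild type pools overlap for 7 of the 16 genes in frog 1 and 15 in frog 2.

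*foxa4.L* (chromosome 4L, 29941904 to 29945354, assembly Xenopus_laevis_v10.1) and *foxa4.S* (4S, 928542 to 931985) encode a forkhead factor of the organizer and axial mesoderm. Among the 16 genes, *foxa4.S* had the most negative change in frog 1 and *foxa4.L* in frog 2. In frog 1 *foxa4.S* had 0.107, 0.756 and 0.0551 TPM in depleted and 4.67, 1.76 and 2.32 TPM in control embryos (-1.55 ± 0.22, adjusted p = 0.00041). In frog 2 it had 0.168, 0.0368 and 0.106 TPM in depleted and 1.54, 4.47 and 1.36 TPM in control embryos (-1.54 ± 0.21, adjusted p = 7.0e-06). The groups were well apart in both frogs, and wild type embryos, with 1.78 to 2.90 TPM over both frogs, lay with the controls. *foxa4.L* had 2.00, 2.57 and 0.703 TPM in depleted and 6.06, 5.25 and 3.80 TPM in control embryos of frog 1 (-1.18 ± 0.20). In frog 2 it had 0.358, 0.217 and 0.207 TPM in depleted and 4.08, 7.43 and 3.68 TPM in control embryos (-2.22 ± 0.19), where depleted embryos were almost without this transcript.

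*eomes*, a T-box factor that specifies mesendoderm, fell in both of its homeologs, the gene copies of the L and S subgenomes. *eomes.S* (6S, 40890399 to 40896123) had 2.69, 3.31 and 1.51 TPM in depleted and 6.67, 6.41 and 7.03 TPM in control embryos of frog 1 (-1.17 ± 0.18), and 0.663, 0.161 and 0.375 TPM in depleted and 1.74, 3.52 and 1.63 TPM in control embryos of frog 2 (-1.21 ± 0.20). *eomes.L* (6L, 50107186 to 50113196) changed by -1.0 ± 0.18 and -1.27 ± 0.14. In frog 1 controls stood above wild type for *eomes.S*, which had 2.98, 3.05 and 4.87 TPM there, and the depleted pools overlapped with wild type. In frog 2 depleted pools lay below wild type (1.79, 2.12 and 2.25 TPM) as well as below control.

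Among ligands and inhibitors, *lefty.L*, a Nodal inhibitor that Nodal itself induces, had 0.974, 1.1 and 0.975 TPM in depleted and 3.68, 3.24 and 3.09 TPM in control embryos of frog 1 (-1.10 ± 0.15, adjusted p = 0.00011). Frog 2 values were 0.420, 0.110 and 0.158 TPM in depleted and 2.55, 3.25 and 2.27 TPM in control embryos (-1.59 ± 0.17, adjusted p = 1.8e-07). The ligand *nodal2.L* had 0.636, 1.29 and 0.402 TPM in depleted and 3.01, 2.23 and 1.86 TPM in control embryos of frog 1 (-0.94 ± 0.19). The frog 2 pools gave 0.221, 0.337 and 0.277 TPM in depleted and 1.64, 2.81 and 1.24 TPM in control embryos (-1.15 ± 0.15). For both genes no depleted pool reached any control pool. *gdf3.S*, a TGF-beta ligand that acts together with Nodal, averaged 9.34 ± 2.24 TPM in depleted and 16.5 ± 3.5 TPM in control embryos of frog 1, and 3.32 ± 0.19 TPM in depleted and 11.5 ± 1.8 TPM in control embryos of frog 2 (SD, n = 3 pools each).

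The homeobox genes *mix1.L*, *bix1.1.L* and *bix1.3.L*, direct Nodal and VegT targets in mesendoderm, lie as neighbours on chromosome 5L between 17988780 (*bix1.3.L*) and 18005890 (*mix1.L*), and *lefty.L* begins at 17864822 on the same chromosome. *mix1.L* averaged 19.8 ± 5.8 TPM in depleted and 37.6 ± 5.2 TPM in control embryos of frog 1, and 9.45 ± 2.07 TPM in depleted and 21.1 ± 1.6 TPM in control embryos of frog 2. The averages of *bix1.1.L* were 25.9 ± 4.8 TPM in depleted and 49.3 ± 7.6 TPM in control embryos of frog 1, and 20.1 ± 3.4 TPM in depleted and 47.8 ± 9.2 TPM in control embryos of frog 2. *bix1.3.L* changed by -0.92 ± 0.19 and -1.21 ± 0.19. These copies are similar in sequence, and how reads were divided between them is uncertain. Their levels in depleted embryos remained well above those at 5.5 hpf, where *mix1.L* averaged 0.370 TPM in frog 1 and 0.255 TPM in frog 2 after depletion, so the transcripts were induced but to a lower level.

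Of the organizer and ventral genes, *chrd.1.L*, a secreted BMP antagonist, had 0.724, 1.29 and 0.855 TPM in depleted and 3.13, 2.43 and 3.15 TPM in control embryos of frog 1 (-1.0 ± 0.21). Its frog 2 levels were 0.795, 0.413 and 0.490 TPM in depleted and 2.80, 3.58 and 1.63 TPM in control embryos (-1.20 ± 0.13). *ventx2.1.S*, a ventral homeobox gene downstream of BMP, had 19.7, 32.7 and 17.5 TPM in depleted and 49.1, 44.9 and 37.3 TPM in control embryos of frog 1 (-0.92 ± 0.17). Its levels in frog 2 were 19.0, 11.6 and 17.4 TPM in depleted and 55.7, 54.2 and 41.3 TPM in control embryos (-1.61 ± 0.18). A dorsal and a ventral gene were thus both lower. *xenf.L* changed by -1.25 ± 0.19 and -1.78 ± 0.25, and *has2.L*, a hyaluronan synthase, by -0.83 ± 0.15 and -1.51 ± 0.19. *LOC100158389* changed by -0.85 ± 0.16 and -1.17 ± 0.19, and *LOC108702592* by -1.04 ± 0.20 and -1.19 ± 0.18. As whole embryos were sequenced, fewer cells that express a gene and less RNA per cell cannot be told apart.

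One gene was higher in both frogs, *LOC108712258*, an unnamed protein-coding gene (3S, 6252828 to 6304837). It had 131, 226 and 214 TPM in depleted and 20.6, 19.8 and 15.2 TPM in control embryos of frog 1 (3.26 ± 0.23). In frog 2 it had 127, 122 and 90.5 TPM in depleted and 11.8, 12.8 and 13.7 TPM in control embryos (3.04 ± 0.19). Wild type embryos, with 11.9 to 24.3 TPM over both frogs, were in the range of the controls or slightly above. The difference was already there at 5.5 hpf (3.31 and 2.96), and depleted embryos averaged 131, 190 and 217 TPM at 5.5, 6.5 and 7.5 hpf in frog 1 and 149, 113 and 94.7 TPM in frog 2.

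The genes lower in frog 1 alone were few. *mixer.S*, a homeobox gene of the endoderm, had 4.08, 9.26 and 7.93 TPM in depleted and 17.3, 18 and 12.2 TPM in control embryos of frog 1 (-1.10 ± 0.22, adjusted p = 0.026). In frog 2 it had 4.61, 1.40 and 6.4 TPM in depleted and 4.39, 7.26 and 2.75 TPM in control embryos (-0.25 ± 0.30, adjusted p = 0.58), where the groups overlapped. The other 2 were *mix1.S* (-0.90 ± 0.18 in frog 1 and -0.59 ± 0.19 in frog 2) and *grhl3.S* (-0.82 ± 0.17 and -0.25 ± 0.15), named after their values were seen because the count is small.

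The lower genes were nearly all genes that wild type embryos switch on at this time. From wild type libraries alone, 379 genes were classed as early rising, with a log2 rise of at least 1 between 5.5 and 6.5 hpf in both frogs, 674 as late rising, with such a rise only by 7.5 hpf, and 87 as falling, with a log2 change of -0.5 or less by 6.5 hpf. No wild type library enters a depleted against control contrast. All 19 lower genes of frog 1 were rising genes (18 early and 1 late), and so were 232 of the 236 of frog 2 (178 early and 54 late). No falling gene was lower or higher in either frog. Calls were rare among all tested genes, at most 1.16% in one direction (the lower genes of frog 2). A class of 87 would thus hold hardly any call, and nothing is read from their absence. Of the 66 higher genes of frog 2, 4 were rising (1 early and 3 late). This is near the share of the 379 early and 674 late rising genes among the 19581 genes tested in both frogs.

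The changes of early rising genes were shifted below 0 in both frogs, although few passed the test in frog 1. Among the 252 protein-coding ones, 18 were lower and 0 higher in frog 1, with a median change of -0.34, and 157 were lower and 1 higher in frog 2, with a median of -0.90. In each frog 229 of the 252 had a change below 0. By comparison, 23.7% of all genes tested in frog 1 and 17.2% in frog 2 had one. The 458 late rising protein-coding genes had medians of -0.08 and -0.18 (1 lower and 0 higher, and 49 lower and 2 higher), and the 76 falling ones medians of 0.22 and 0.26, against medians of 0.08 and 0.14 over all genes. After median-ratio rescaling the early rising protein-coding genes had medians of -0.43 and -0.97 and the falling ones 0.12 and 0.10.

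**Figure D3:**
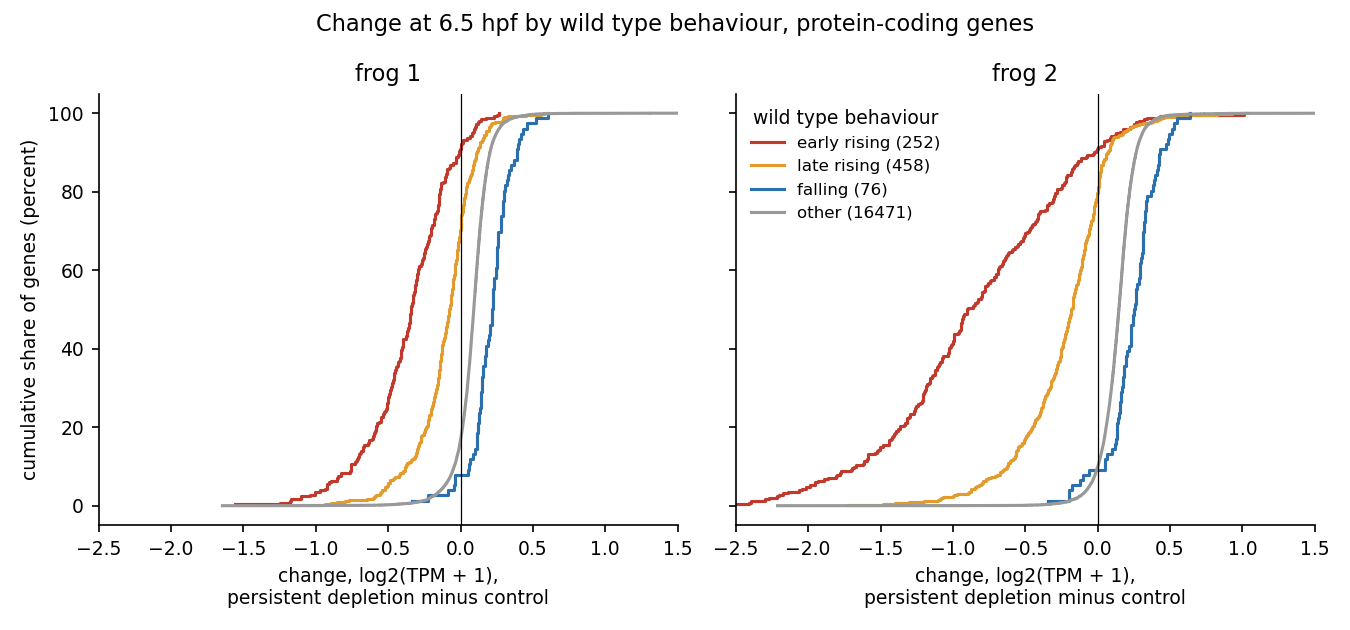
Cumulative share of protein-coding genes (percent) against their change in log2(TPM + 1), persistently depleted minus control, at 6.5 hpf for early rising, late rising, falling and other genes, with the number of genes in the legend. The early rising curve lies furthest to the left in both frogs, with medians of -0.34 in frog 1 and -0.90 in frog 2.

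In single libraries, the mean log2(TPM + 1) of all 379 early rising genes was 3.3, 3.32 and 3.07 in depleted and 3.69, 3.54 and 3.37 in control pools of frog 1. The groups did not overlap, but depleted pool 2 was close to control pool 3, the library with the most ribosomal RNA. In frog 2 the means were 3.24, 3.18 and 3.28 in depleted and 4.17, 4.18 and 3.76 in control pools. The 3 depleted pools of frog 2 all lay below its lowest control. The tables of the frogs were normalized separately, so levels were not tested between them. Control pool 3 was the lowest control in each frog.

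The other early rising genes were RNAs that are not translated. The 42 long non-coding RNAs had a median change of -0.24 in frog 1 (0 lower) and -0.75 in frog 2 (16 lower). The 37 transfer RNA genes had medians of -0.36 (0 lower) and -1.02 (1 lower). Of these, 27 had a change below 0 in frog 1 and all 37 in frog 2, against 23.7% and 17.2% of all tested genes. The 40 small nuclear RNA genes held only 4 distinct sets of values, since identical copies receive equal shares of the reads, and none of them was lower. They had median changes of -0.02 in frog 1 and -0.33 in frog 2, with 39 and 40 of the 40 below 0. With so few distinct values, the absence of calls says little about them. Lower genes were short. Early rising protein-coding genes spanned a median of 3448 bp among the lower ones of frog 1 and 3841 bp among those of frog 2, against 4121 bp for all 252 and 20089 bp for all tested protein-coding genes. Early rising genes with under 1 TPM, 1 to 5 TPM and at least 5 TPM in wild type at 5.5 hpf had median changes of -0.77, -0.92 and -0.77 in frog 2 (n = 262, 85 and 32). Lower genes numbered 133, 37 and 8 in these groups. In frog 1 the medians were -0.34, -0.13 and -0.27 (n = 214, 125 and 40), with 11, 7 and 0 lower genes. The medians were below 0 in every group, and the group with 1 to 5 TPM had the most negative median in frog 2 and the least negative in frog 1. The groups also differed in gene type and count identical copies singly. Protein-coding genes were 175 of 214 under 1 TPM and 10 of 40 from 5 TPM in frog 1, and 183 of 262 and 10 of 32 in frog 2. Level and gene type were not tested apart.

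By function, the Nodal and mesendoderm list had the most lower genes in frog 1. The counts of this and the next lists stand beside 0.0909% of all genes lower in frog 1 and 1.16% in frog 2, and beside 7.14% and 62.3% of the early rising protein-coding genes. Early rising genes made up 28 of the Nodal, 17 of the dorsal, 13 of the BMP, 16 of the pluripotency and 22 of the ectoderm list, and the lists were not tested apart from that class. Of the 54 gene copies of the Nodal and mesendoderm list tested in frog 1, 12 were lower (22.2%) and 0 higher, with a median change of -0.30. Of those tested in frog 2, 20 of 50 were lower (40.0%) and 0 higher, with a median of -0.33. In frog 2 the lower members included the ligands *nodal.L* (-1.10 ± 0.16), *nodal1.L* (-1.10 ± 0.15), *nodal3.1.L* (-1.42 ± 0.21) and *nodal6.S* (-0.74 ± 0.19) and the endoderm factor *sox17a.L* (-0.85 ± 0.17). These examples were picked after their values were seen. In frog 1 the same genes had -0.49 ± 0.18, -0.85 ± 0.20, -0.41 ± 0.22, -0.15 ± 0.24 and -0.27 ± 0.19, and none passed the test.

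The list of dorsal organizer and Wnt target genes had 3 of 51 lower in frog 1 (median -0.08) and 19 of 49 in frog 2 (38.8%, median -0.40), with 0 higher in both. Of these calls, *foxa4.L* and *foxa4.S* in both frogs and *nodal3.1.L* in frog 2 are also counted in the Nodal and mesendoderm list. *admp.L*, a BMP-like ligand of the organizer, had 0.712, 0.419 and 0.601 TPM in depleted and 4.91, 5.96 and 3.55 TPM in control embryos of frog 2 (-1.86 ± 0.15, adjusted p = 7.4e-10). In frog 1 it had 2.04, 1.38 and 1.28 TPM in depleted and 3.12, 3.24 and 2.40 TPM in control embryos (-0.61 ± 0.24, adjusted p = 0.90), which did not overlap either. *admp.S* changed by -0.35 ± 0.23 in frog 1 and by -2.01 ± 0.22 in frog 2, and the Wnt-induced factor *sp5l.L* by -0.52 ± 0.17 and -1.59 ± 0.16.

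The list of BMP and ventral genes had 1 of 45 lower in frog 1 (median -0.04) and 14 of 38 in frog 2 (36.8%, median -0.06), and that of pluripotency factors 1 of 40 (median 0.04) and 13 of 40 (32.5%, median 0.03), with 0 higher throughout. The lists share the Vent genes, which were most of these calls. *ventx1.1.S* had 0.343, 0.447 and 0.680 TPM in depleted and 3.41, 4.93 and 2.62 TPM in control embryos of frog 2 (-1.62 ± 0.18), and changed by -0.41 ± 0.24 in frog 1. *ventx2.1.L* changed by -0.75 ± 0.19 in frog 1 (adjusted p = 0.22) and -1.18 ± 0.16 in frog 2, and *ventx2.2.S* by -0.54 ± 0.18 and -1.70 ± 0.19. The BMP target *id3.S*, an inhibitor of helix-loop-helix factors, had 2.12, 1.04 and 2.07 TPM in depleted and 17.2, 13.3 and 10.2 TPM in control embryos of frog 2 (-2.41 ± 0.22).

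Copies of pou5f3, sox2 and sox3, core pluripotency factors, gave mixed results. *pou5f3.2.S*, a zygotic Oct4-related factor, had 21.2, 18 and 22.9 TPM in depleted and 43.4, 40.8 and 39.5 TPM in control embryos of frog 2 (-0.96 ± 0.13, adjusted p = 5.0e-06). In frog 1 it had 20.9, 27.7 and 21.0 TPM in depleted and 36.5, 32.8 and 26.9 TPM in control embryos (-0.45 ± 0.15, adjusted p = 0.83), where the groups overlapped. *pou5f3.2.L* changed by -0.31 ± 0.12 in frog 1 and -0.62 ± 0.13 in frog 2, where it was lower (adjusted p = 0.0052). The maternally loaded *pou5f3.3.L* had 231, 223 and 236 TPM in depleted and 202, 208 and 215 TPM in control embryos of frog 2 (0.14 ± 0.08), and 0.12 ± 0.11 was its change in frog 1. Likewise *pou5f3.3.S* (0.05 ± 0.12 and 0.18 ± 0.08), *sox3.L* (0.09 ± 0.09 and -0.03 ± 0.08) and *sox3.S* (0.10 ± 0.10 and -0.05 ± 0.10) did not pass. *sox2.L* (0.08 ± 0.27 and -0.63 ± 0.25), *pou5f3.1.L* (-0.31 ± 0.20 and -0.58 ± 0.21) and *pou5f3.1.S* (-0.01 ± 0.21 and -0.66 ± 0.18, adjusted p = 0.053 in frog 2) averaged under 2 TPM in each group and did not pass either.

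Ectoderm and neural plate genes had 1 of 55 lower in frog 1 (median -0.07) and 16 of 56 in frog 2 (28.6%, median -0.24). *zic1.S*, a zinc finger factor of the neural plate, had 1.17, 1.14 and 1.37 TPM in depleted and 7.97, 10.13 and 6.71 TPM in control embryos of frog 2 (-2.04 ± 0.26). Frog 1 pools had 2.65, 2.35 and 2.15 TPM in depleted and 2.73, 3.61 and 2.53 TPM in control embryos (-0.22 ± 0.23), and both lay far below the 12.0 to 13.7 TPM of wild type. *foxd4l1.1.L*, a forkhead gene of the neural ectoderm, fell in frog 2 (-1.44 ± 0.19) and had a change of -0.09 ± 0.26 in frog 1. Early zygotic genes collected from the *Xenopus* literature had 6 of 56 lower (10.7%, median -0.15) and 17 of 52 (32.7%, median -0.37). Nearly all of these calls are also counted in the lists above.

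Smaller numbers came from the FGF list, with 0 of 37 and 4 of 36 lower (medians 0.00 and 0.13). The ligand *fgf8.L* (-0.46 ± 0.13 in frog 1 and -1.50 ± 0.15 in frog 2) and its homeolog *fgf8.S* (-0.59 ± 0.15 and -1.16 ± 0.13) fell in frog 2, as did the phosphatases *dusp5.L* (-1.03 ± 0.13) and *dusp1.S* (-0.80 ± 0.16), which FGF signalling induces. Adhesion and morphogenesis genes had 1 of 42 and 4 of 39 lower (medians 0.03 and 0.10). These were *has2.L*, in frog 2 together with *has1.S* (-1.71 ± 0.23) and the protocadherins *pcdh18.L* (-0.51 ± 0.12) and *pcdh18.S* (-0.56 ± 0.12).

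In the remaining lists the counts were near the share over all genes (0.0909% lower in frog 1 and 1.16% in frog 2), and nothing is read from them about the lists. Cell cycle and mid-blastula checkpoint genes had 0 of 61 lower in frog 1 and 2 of 61 in frog 2 (medians 0.12 and 0.17), which were *cdc25b.L* and *cdc25b.S* (-1.07 ± 0.21), copies of a zygotic Cdc25 phosphatase. Maternal RNA clearance genes had 0 of 67 and 1 of 65 lower (medians 0.10 and 0.18), the one being *btg5.2.S* (-2.30 ± 0.24), an early rising gene. Germ plasm genes had none of 22 lower or higher in either frog (medians 0.13 and 0.14), and *plin2.L*, taken with *plin2.S* as an example because of their high levels, had 231, 240 and 262 TPM in depleted and 216, 224 and 222 TPM in control embryos of frog 2 (0.15 ± 0.08). The change of *plin2.S* was 0.11 ± 0.12 in frog 1 and 0.09 ± 0.07 in frog 2.

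Writers and erasers of H3K4 methylation had 0 of 45 and 0 of 44 lower or higher (medians 0.10 and 0.17, near those of all genes). At the share of calls over all genes, a list of this size would hold hardly any call. Their most abundant members, the COMPASS subunit copies *dpy30.L* (0.02 ± 0.13 and 0.08 ± 0.09) and *dpy30.S* (0.01 ± 0.11 and 0.01 ± 0.09), stayed within the error of 0. Of the H3.3 histone and chaperone genes, 0 of 25 and 1 of 26 were higher, the one being *h3-5.L* above. The p53 and stress response list had 0 of 52 and 0 of 51 lower, and 1 higher in frog 2, the kinase gene *plk2.S*. It had 12.5, 8.11 and 13.7 TPM in depleted and 6.67, 4.08 and 6.35 TPM in control embryos of frog 2 (0.89 ± 0.23, adjusted p = 0.042), against 0.406 to 0.947 TPM in wild type, and in frog 1 it changed by -0.07 ± 0.19 with depleted and control embryos both above wild type.

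The strongest falls were seen in frog 2 and were largely absent from frog 1. The gene listed as *XB5961731.L [provisional:ins]* had 0.542, 1.05 and 0.127 TPM in depleted and 16.2, 17.2 and 10.12 TPM in control embryos of frog 2 (-3.31 ± 0.39). In frog 1 it had 1.15, 0.412 and 0.364 TPM in depleted and 0.547, 0.405 and 0.440 TPM in control embryos (0.14 ± 0.26), with 8.86, 6.36 and 8.32 TPM in wild type. In frog 1 both injected groups thus lay far below wild type. *cdc25b.L* had 0.176, 0.455 and 0.528 TPM in depleted and 9.72, 9.69 and 6.24 TPM in control embryos of frog 2 (-2.77 ± 0.37). Frog 1 pools had 1.07, 1.0 and 0.154 TPM in depleted and 0.626, 0.807 and 0.693 TPM in control embryos, with 11.6, 8.99 and 13.5 TPM in wild type, so that the injected groups were alike and both low.

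The long non-coding RNA *LOC108697345* had 0.184, 0.301 and 0.346 TPM in depleted and 8.22, 8.93 and 7.02 TPM in control embryos of frog 2 (-2.82 ± 0.28). The frog 1 values were 0.794, 0.663 and 0.586 TPM in depleted and 2.13, 0.928 and 0.505 TPM in control embryos, against 10.6 to 11.6 TPM in wild type. *cyp26a1.S*, which degrades retinoic acid, had 1.48, 0.953 and 1.09 TPM in depleted and 11.9, 11.7 and 7.96 TPM in control embryos of frog 2 (-2.39 ± 0.29), and changed by 0.04 ± 0.25 in frog 1. Of the other strong falls in frog 2, *LOC121402118* (-3.06 ± 0.43) and *LOC121403668* (-2.47 ± 0.32) are long non-coding RNAs and *LOC121403521* (-2.89 ± 0.53) is a small nucleolar RNA listed at 0 in all 3 depleted pools. The changes of these in frog 1 were -0.08 ± 0.54, 0.06 ± 0.38 and 0.74 ± 1.23.

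A test of the difference between the frogs in a joint fit passed for 36 genes with a more negative change in frog 2 (0.184% of 19581 genes) and 5 with a more positive one (0.0255%). Among the first were *hes7.1.S*, a Hes-family repressor, with a difference of -2.14 (adjusted p = 5.1e-08), and *LOC108703412*, which was listed at 0 in all depleted pools of both frogs and in all control pools of frog 1, and had 2.3, 3.93 and 2.59 TPM in control pools of frog 2. All 36 were lower in frog 2. Their median change was -0.19 in frog 1 and -1.83 in frog 2. The median of control minus wild type was -1.34 in frog 1 and -0.28 in frog 2, and that of depleted minus wild type was -1.62 in frog 1 and -2.10 in frog 2. These comparisons share their control or depleted libraries with the test that chose the 36 genes. That choice favours low controls in frog 1 and high controls in frog 2.

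Control embryos themselves differed from wild type, and the number of such genes depended on scaling. In frog 1, control embryos had 3514 lower (16.8% of genes tested) and 347 higher genes (1.66%) than wild type, with a median of -0.25 over all genes. In frog 2, 11 were lower (0.0542%) and 125 higher (0.616%), with a median of 0.02. After median-ratio rescaling, an alternative chosen after seeing the data, the lower genes numbered 108 in frog 1 and 23 in frog 2, and the higher ones 332 in frog 1 and 132 in frog 2. Most of the 3514 calls were thus not kept in number once the shift of all genes was removed. Of the 36 genes with the more negative change in frog 2, control embryos were lower than wild type for 34 in frog 1 and 1 in frog 2, and after rescaling for 30 in frog 1 and 1 in frog 2. The same control pools entered the test that chose the 36 genes, so these counts only describe them. The part of the controls in the difference between the frogs was not tested.

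For the 236 lower genes of frog 2, the median of depleted minus wild type was -0.93 in frog 1 and -1.17 in frog 2, and that of control minus wild type was -0.63 in frog 1 and -0.10 in frog 2. With median-ratio rescaling, depleted minus wild type had medians of -0.75 in frog 1 and -1.28 in frog 2, and control minus wild type -0.40 in frog 1 and -0.12 in frog 2. Controls lay further below wild type in frog 1 under both scalings, and depleted embryos lay further below it in frog 2. Which of these differed more between the frogs depended on the scaling. The 236 genes were chosen by depleted minus control in frog 2, which favours high control and low depleted values there. No such choice was made in frog 1, so the values describe these genes and the frogs were not compared by a test. In frog 1, 202 of the 236 had a depleted minus control change below 0, with a median of -0.27, and 16 passed the test. In that frog 23.7% of all tested genes, 87.9% of the early rising and 70.9% of the late rising genes were below 0. Those that passed as lower made up 0.0909%, 4.75% and 0.148% of them. Nearly all of the 236 are rising genes, and they were not tested apart from these classes. Wild type pools at 6.5 hpf also helped to class the rising genes, so comparisons with wild type are not independent of the classes.

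**Figure D4:**
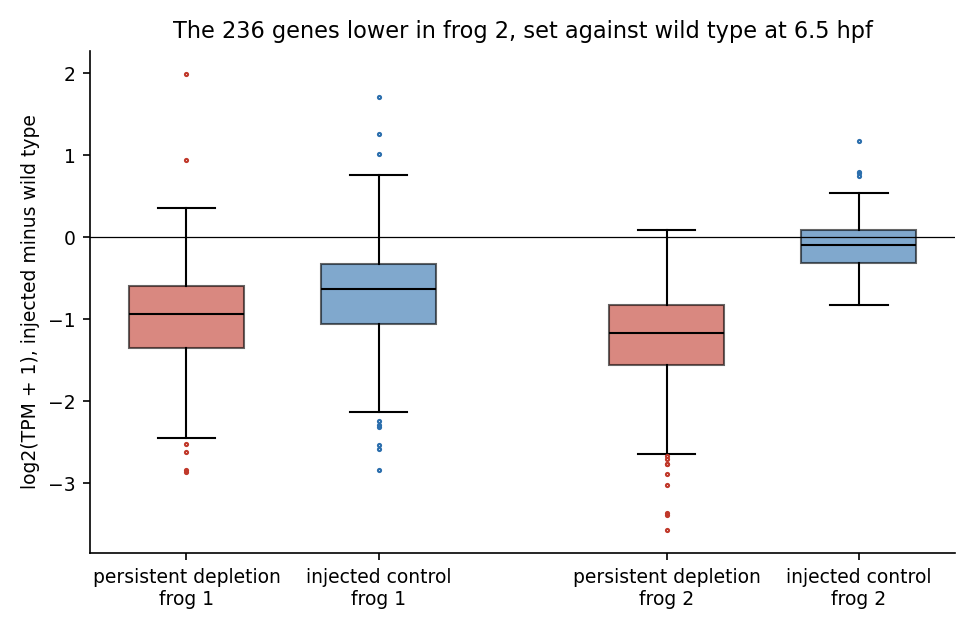
Difference in log2(TPM + 1) from wild type at 6.5 hpf for the 236 genes lower in frog 2, with persistently depleted embryos left of injected controls for each frog. Boxes hold the middle 50% of genes with the median as a line, whiskers reach to the last gene within 1.5 times the box, and dots are the remaining genes. Control embryos lie near 0 in frog 2 (median -0.10) and below 0 in frog 1 (median -0.63). The genes were chosen by their fall from control to depleted embryos in frog 2, which favours high controls there.

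Both homeologs of a pair fell in some cases. In frog 2, 81 of 4584 tested L and S pairs had a lower member, and both copies were lower in 35 of them. In the other 46 pairs the partner copy had a change below 0 in 35, with a median of -0.25. In frog 1 there were 11 such pairs of 4669, with both copies lower in 3 (*eomes*, *foxa4* and *mix1*) and a partner below 0 in all 8 others (median -0.64). Over all tested genes, 0.0909% were lower and 23.7% below 0 in frog 1, and 1.16% and 17.2% in frog 2. Among early rising protein-coding genes 90.9% were below 0 in each frog, and the pairs were not tested apart from that class.

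The 66 higher genes of frog 2 had mostly small changes, with a median of 0.45, and 61 of them were in no rising or falling class, like most tested genes. This number depended on scaling: 13 genes were higher after median-ratio rescaling, where 95.8% of calls were lower genes in place of 78.1%, and 8 were higher without depleted pool 3, 25 without control pool 1 and 23 without control pool 2. The long non-coding RNA *LOC121396416* stood out by its level in injected embryos. It had 251, 220 and 452 TPM in depleted and 68.2, 71.8 and 153 TPM in control embryos of frog 2 (1.68 ± 0.43, adjusted p = 0.036). In frog 1 it had 349, 605 and 381 TPM in depleted and 826, 701 and 556 TPM in control embryos (-0.67 ± 0.29, adjusted p = 0.90). Wild type embryos had at most 3.83 TPM. Its call in frog 2 was lost with median-ratio rescaling (adjusted p = 0.058).

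Further genes were higher in depleted than in control embryos of frog 2, and their levels in wild type varied. With median-ratio rescaling (limma) the calls of *LOC121396899* (adjusted p = 0.090), *LOC121399606* (adjusted p = 0.069) and *LOC121395298* (adjusted p = 0.058) were lost as well. Those of *LOC121394249* (adjusted p = 0.019) and *LOC108696664* (adjusted p = 0.012) were kept. *LOC121394249* had 7.91, 7.39 and 9.69 TPM in depleted and 3.93, 2.56 and 4.62 TPM in control embryos (1.01 ± 0.22), with at most 0.105 TPM in wild type of that frog, and *LOC121396899* changed by 0.97 ± 0.25. In frog 1 their changes were -0.16 ± 0.31 and 0.18 ± 0.26. *LOC108696664* changed by 0.93 ± 0.21 in frog 2 and -0.15 ± 0.23 in frog 1. The small nuclear RNA *LOC121399606* had 8.91, 17.3 and 6.00 TPM in depleted embryos and was listed at 0 in all 3 control pools of frog 2 (adjusted p = 0.049), with 3.21 to 15.8 TPM in wild type, and the small nucleolar RNA *LOC121395298* changed by 1.17 ± 0.27, with 83.0 to 152 TPM in control and 153 to 228 TPM in wild type embryos. In frog 2 *h3-5.L* was also higher. The 3 depleted pools of *hbg1.L* lay above the 3 control pools, as for 31.1% of the genes tested in frog 2, without passing the test. The part of *h3-5.L* and *hbg1.L* in these changes was not tested.

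The time of the change was compared within each frog. At 5.5 hpf, 1 gene was lower after persistent depletion in frog 1 (0.00479%) and 2 in frog 2 (0.00986%), and at 7.5 hpf 134 (0.641%) and 445 (2.19%). The 252 early rising protein-coding genes had median changes of -0.09, -0.34 and -0.33 at 5.5, 6.5 and 7.5 hpf in frog 1 and of -0.05, -0.90 and -0.39 in frog 2. Of the 236 lower genes of frog 2, 154 were lower again at 7.5 hpf (65.3% of the 236 and 34.6% of the 445), in other pools of embryos.

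A change at 6.5 hpf that was more negative than at 5.5 hpf passed the test for 97 genes of frog 2 (0.478%), 94 of which were lower at 6.5 hpf, and for 0 of frog 1 (0%), where limma gave 201 such genes at an unadjusted p under 0.05. None was more positive by this test (0% in each frog, with 1651 and 934 at an unadjusted p under 0.05). In frog 2 *admp.L*, *foxa4.L*, *id3.S* and *LOC108697345* led, by -1.81, -2.14, -2.41 and -2.85. Early rising genes made up 85 of the 97. This test shares its 6.5 hpf libraries with the calls at that time, so the 94 lower genes follow in part from the choice. Of the 236 lower genes of frog 2, 181 had under 1 TPM in wild type at 5.5 hpf. At such levels the added 1 holds the change at 5.5 hpf near 0, so this test says little about when the effect began. From 6.5 to 7.5 hpf, 9 genes of frog 2 became less negative (0.0444%) and 1 more negative (0.00493%), and in frog 1 none (0%, with 234 at an unadjusted p under 0.05) and 3 (0.0144%).

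The 9 genes of frog 2 that became less negative were all lower and early rising at 6.5 hpf. The test that chose them uses the same 6.5 hpf libraries, which favours genes with large falls at that time. The values below therefore only describe them. *ventx2.1.S* averaged 16.0 TPM in depleted and 50.4 TPM in control embryos at 6.5 hpf, and 93.2 TPM in depleted and 96.4 TPM in control embryos at 7.5 hpf. *ventx2.1.L* averaged 86.1 TPM in depleted and 80.1 TPM in control embryos at 7.5 hpf, and *klf17.1.S* 36.5 TPM in depleted and 37.7 TPM in control embryos. Levels of these genes had thus reached those of controls an hour later. The Notch ligand gene *dlc.L* averaged 0.558 TPM in depleted and 1.26 TPM in control embryos at 6.5 hpf, and 3.57 TPM in depleted and 2.53 TPM in control embryos at 7.5 hpf. The remaining ones were *LOC108703412*, *fgf8.L*, *fgf8.S*, *foxa4.L* and *ventx2.2.S*.

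Genes that became more negative were late rising or near 0 TPM at 6.5 hpf. They were *gata6.L* (by -1.23), *sema3f.L* (by -0.97) and *LOC108704391* (by -0.86) in frog 1 and *pcdh8.2.S* in frog 2. *gata6.L* averaged 0.0382 TPM in depleted embryos of frog 1 and was listed at 0 in control embryos at 6.5 hpf, and had 0.536 TPM in depleted and 2.49 TPM in control embryos at 7.5 hpf.

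**Figure D5:**
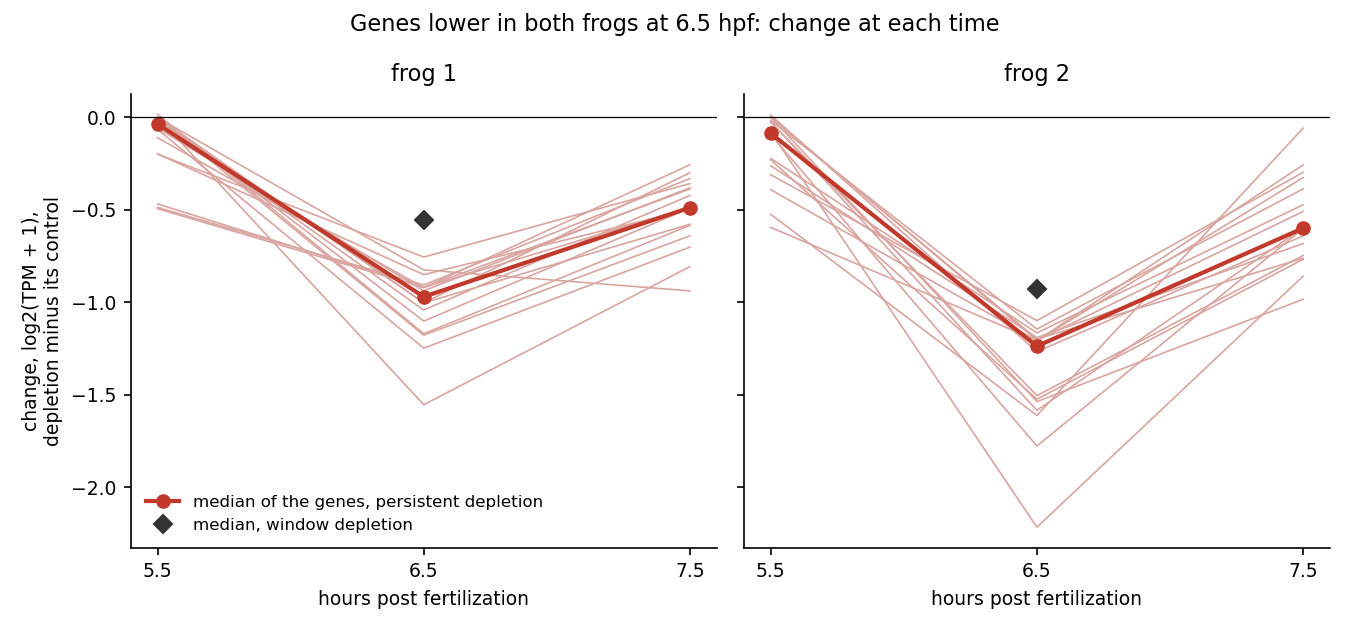
Change in log2(TPM + 1), depleted minus control, at 5.5, 6.5 and 7.5 hpf for each of the 16 genes lower in both frogs at 6.5 hpf (thin lines), with their median (red) and the median under window depletion at 6.5 hpf (black diamond). The genes were chosen at 6.5 hpf, which favours large values there; at 7.5 hpf the medians were -0.49 in frog 1 and -0.60 in frog 2, and all 16 lay below 0 in each.

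Window depletion embryos were placed in auxin at the 256-cell stage, and the injected proteins were not measured in these libraries. The time at which these proteins were gone was therefore not tested. At 6.5 hpf the numbers of lower genes were near those of persistent depletion, but in frog 1 the lists of called genes shared only 1 gene. Window depletion, with its own control embryos, gave 21 lower (0.101%) and 1 higher gene (0.00479%) in frog 1 and 193 lower (0.952%) and 75 higher genes (0.37%) in frog 2. The difference between the persistent and the window effect passed for 0 genes in frog 1 (0%) and 0 in frog 2 (0%), with 675 and 468 at an unadjusted p under 0.05. With 3 pools per group, a difference that does not pass does not show that the persistent and window effects were equal. In frog 2, 162 genes were lower in both, 68.6% of the persistent and 83.9% of the window genes. In frog 1 this was 1 gene, *ventx2.1.S*, of 19 and 21, although all 19 had a window change below 0. These short lists are cut at a threshold, so a gene missing from either list need not differ in effect.

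Early rising protein-coding genes had median changes of -0.34 under persistent and -0.44 under window depletion in frog 1, and of -0.90 under persistent and -0.70 under window depletion in frog 2. The order thus differed between the frogs. For the 16 genes lower in both frogs the window medians were -0.56 and -0.93, with all 16 below 0 in each frog. Over all tested genes the window medians were 0.07 in frog 1 and 0.11 in frog 2. The 16 genes were chosen by their persistent change, which favours larger persistent than window values. The same holds for *foxa4.L*, so these values do not compare the strength of the 2 depletions. For *foxa4.L* in frog 2, levels averaged 0.261 TPM under persistent and 1.07 TPM under window depletion, against 5.06 and 4.24 TPM in their controls. In frog 1 they averaged 1.76 TPM under persistent and 2.77 TPM under window depletion, against 5.04 and 4.97 TPM in their controls.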

How the data were processed

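The authors assigned reads to transcripts of assembly Xenopus_laevis_v10.1 with kallisto 0.48, summed isoforms with tximport and deposited TPM, with 1 table of 45 libraries per frog. Counts were not used here, so sequencing depth is unknown. Entries with the same gene name were summed (2269 entries in frog 1, 2204 in frog 2), and 806 unnamed entries of frog 2 (at most 0.0744% of a library) were left out. No per-sample column was left unused (0). Symbols were matched to RefSeq genes of the same assembly (36790 of 37504 and 35808 of 36504).

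Values of log2(TPM + 1) entered a linear model for each frog (R 4.3.3, limma 3.58.1) with a mean for each of 15 groups, a mean-variance trend and two-sided p-values adjusted by the Benjamini-Hochberg method (threshold 0.05) over genes with at least 1 TPM in 3 libraries. The 2 tables were tested separately, and a joint fit gave differences between frogs. Gene classes used wild type libraries after median-ratio rescaling. The fit was tested on simulated data. Named genes were those called in both frogs, the 8 strongest per frog and direction without overlap of pools, injected genes, pou5f3, sox2 and sox3 copies, up to 4 per list and up to 4 per tested difference. The members and the 14 lists were chosen with earlier results of these data known. Alternatives were another pseudocount (0.1), other filters, rescalings, no trend, a replicate block, the contrast's libraries alone, a joint fit and leaving out each pool. A gene that the rule names is not reported here.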

Additional observations from a re-analysis of the deposited data

Results flagged for a closer look

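The effect of persistent depletion differed between the frogs, by the test of the difference in the joint fit (limma), for 36 genes with a more negative and 5 with a more positive change in frog 2. The differences, frog 2 minus frog 1, that passed with the smallest adjusted p were -2.14 for *hes7.1.S*, -3.45 for *XB5961731.L [provisional:ins]*, -1.96 for *LOC108703412* and -1.86 for *id3.S*. *LOC108703412* was listed at 0 in depleted and control pools of frog 1, so its difference depends on the added pseudocount.

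Differences between times within a frog also passed. From 5.5 to 6.5 hpf, 97 genes of frog 2 became more negative, led by *admp.L* (-1.81), *foxa4.L* (-2.14), *id3.S* (-2.41) and *LOC108697345* (-2.85). Early rising genes made up 85 of the 97, and for genes with little RNA at 5.5 hpf the added 1 holds the earlier change near 0. From 6.5 to 7.5 hpf, 3 genes of frog 1 became more negative, *gata6.L* (-1.23), *sema3f.L* (-0.97) and *LOC108704391* (-0.86), and in frog 2, 1 gene became more negative and 9 less negative, led by *klf17.1.S* (1.21), *ventx2.1.S* (1.55), *ventx2.1.L* (1.29) and *dlc.L* (0.90). Groups of 3 pools are too small for a search for single deviating samples.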

How the results depend on the processing

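No named gene that was called changed sign under any alternative, and 989 of their values kept the call while 195 lost it. Lower genes numbered 19 in frog 1 and 6 with a pseudocount of 0.1, 11 without a filter, 2 with the libraries of the contrast alone, 32 with median-ratio rescaling and 29 after rescaling without ribosomal RNA, globin and H3.3 genes. They ranged from 4 to 29 when 1 pool was left out, with 1 higher gene throughout. Higher genes of frog 1 numbered 2 without a filter and 4 with the libraries of the contrast alone. In frog 2 the 236 lower and 66 higher genes became 126 and 36 with a mean of at least 5 TPM, 86 and 9 with the libraries of the contrast alone, and 297 and 13 with median-ratio rescaling, and ranged from 170 to 271 and from 8 to 81 when 1 pool was left out. The shared lower genes numbered 6 with a pseudocount of 0.1 (5 of them among the 16), 0 with the libraries of the contrast alone, and 3 to 22 when 1 pool was left out. The joint fit gave 205 lower and 51 higher genes by the mean change of both frogs, which can pass on frog 2 alone. Genes lower in control than in wild type numbered 3514 in frog 1 and 11 in frog 2, and 108 and 23 with median-ratio rescaling, which was chosen after seeing the data. The cause of these moves was not tested, apart from fewer genes or libraries entering some fits. The median change of early rising genes stayed between -0.38 and -0.21 in frog 1 and between -0.96 and -0.71 in frog 2. The difference between persistent and window effects passed for 0 genes, except 1 without depleted pool 3 of frog 1 (range 0 to 1).

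When pool numbers entered as a replicate block, lower genes numbered 17 and 231, of which 14 were shared. Same-numbered pools did not deviate together (correlations of -0.091 to 0.036 between depleted and control pools), so the numbers were not taken as pairs. TPM carry no depth, and low transcripts such as *foxa4.S* rest on an unknown number of reads.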
